A study of Homo sapiens with 6 samples.

Results

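The genes described are the members of the ATP-binding cassette (ABC) family, taken as every row of the deposited count table whose Ensembl identifier maps to a symbol made of ABC, one letter from A to G and a number. This rule found 39 of 23227 genes. A further 7 symbols of that form (ABCA4, ABCA13, ABCB5, ABCC8, ABCC9, ABCC12 and ABCG1) are not analysed here. The libraries came from MV4-11, an established human acute myeloid leukaemia line described as wild type, with 3 control libraries labelled as receiving no treatment and 3 libraries labelled as ENO1 knockdown (ENO1 encodes alpha-enolase, an enzyme of glycolysis). In the table the knockdown columns bear a single short hairpin name, sh2, so a second hairpin is not represented, and the labels do not spell out NC, the name of the controls. The comparison asked how expression differs with and without that knockdown.

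ABC proteins couple the binding and hydrolysis of ATP to the movement of a substrate across a membrane. Members of the A and G subfamilies move sterols and phospholipids, several B and C members export drugs and organic anions, and others sit in mitochondria, peroxisomes or lysosomes. ABCE1 and the F subfamily have the nucleotide-binding domains but no membrane domain and act in translation. In leukaemia the family is best known for drug efflux, and in myeloid cells for the export of cholesterol by ABCA1, whose gene is induced by the liver X receptors (LXR), nuclear receptors activated by oxysterols.

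The sequences shown first are promoter windows of ABCA1 and ABCD2, the genes with the largest fall and the largest rise among members with a mean of at least 1 CPM (the usual count unit scaled to library totals) in both groups. They come from the RefSeq table for GRCh38.p14, are written 5′ to 3′ along the gene's strand, and run from 250 bases before to 50 bases after an annotated start. Capitals mark a match to a direct repeat of the type LXR binds (DR4, a pair of AGGTCA sites in the same direction with 4 bases between them, on either strand, with up to 2 mismatches). In the ABCA1 window they also mark an E-box (CACGTG).
ABCA1, chr9:104928106-104928405, minus strand: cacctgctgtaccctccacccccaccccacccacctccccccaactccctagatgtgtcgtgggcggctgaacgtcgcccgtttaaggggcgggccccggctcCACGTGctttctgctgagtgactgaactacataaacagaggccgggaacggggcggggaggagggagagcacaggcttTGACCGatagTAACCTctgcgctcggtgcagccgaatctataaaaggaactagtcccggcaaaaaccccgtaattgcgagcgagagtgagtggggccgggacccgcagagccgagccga
ABCD2, chr12:39619754-39620053, minus strand: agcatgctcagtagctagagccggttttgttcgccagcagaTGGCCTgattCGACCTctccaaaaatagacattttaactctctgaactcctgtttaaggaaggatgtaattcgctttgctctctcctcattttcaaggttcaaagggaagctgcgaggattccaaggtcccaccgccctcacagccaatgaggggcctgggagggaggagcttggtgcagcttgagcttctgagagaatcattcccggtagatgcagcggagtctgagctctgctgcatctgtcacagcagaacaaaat

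The DR4 match began at -69 from the start in ABCA1 and at -209 in ABCD2, and each had 2 mismatches. The E-box of ABCA1 began at -147. Windows were found for 32 of the 39 members, 48 windows in all. A DR4 match was present in 4 of the 48 windows (8.33%), in ABCA1, ABCD2 and ABCC6, against 2.34% of all 34943 windows. The ABCC6 site was counted in 2 overlapping windows, so the 4 windows stand for 3 members. An E-box was present in 9 windows of the family (18.8%), against 7.23% of all. The ABCG2 E-box was likewise counted in 2 overlapping windows, so 8 members had an E-box. The core of the antioxidant response element (TGACNNNGC on either strand) was present in 12 (25.0%), against 13.3% of all, and the sterol response element TCACNCCAC in none, against 1.12%. The family's windows had a median share of G and C of 62.3%, against 58.7% for all windows, and its part in these matches was not tested. A match describes these letters and is not evidence of binding, and the part of such matches in any change was not tested.

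The depth was similar within each group. Library totals ran from 24778469 to 26373960 counts in the controls and from 20044602 to 21670135 in the knockdown libraries. By the chi-square of their counts over genes, divided by its degrees of freedom, control replicate 2 differed from the other controls by 2.84 and 3.15, against 2.10 between those, and knockdown replicate 3 from its group by 4.04 and 4.20, against 2.29. Values without both are given where they end a call. ENO1 had 84016, 79566 and 80058 counts in the controls and 2225, 2225 and 2070 counts in the knockdown libraries, so the knockdown level was 3.13% of the control level. All 9 listed myeloid leukaemia markers were expressed, with a summed level of 2166 to 2183 CPM in the control group, against 2205 to 2225 CPM in the knockdown group. The similar sums do not mean unchanged markers, since 4 of the 9 were higher, 3 lower and 2 without a call. Among all genes tested 29.4% were higher and 30.5% lower. Of 16 markers of other cell types 8 had a row, and their summed level of 97.5 to 99.8 CPM in the control group, against 72.0 to 73.2 CPM in the knockdown group, was mostly PECAM1, an adhesion molecule also made by myeloid cells. Among the 4 of these that were tested 1 was higher, 1 lower and 2 without a call. The higher gene was CD79A, named after its value was seen. It ran from 0.116 to 0.451 CPM in the control group, against 0.590 to 1.02 CPM in the knockdown group. CD79A passed the filter on low counts only through its knockdown libraries, so its rise is a condition of its being tested. EPCAM and CD3E, which mark epithelium and T cells, had 0 counts in all controls and 2 and 3 counts in 1 knockdown library each. The part of these markers in the results was not tested. Separate cultures are not stated in the labels, and p-values therefore rest on a spread between libraries that could be technical.

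Of the 39 members, 25 passed the filter on low counts. In edgeR's quasi-likelihood test, with Benjamini-Hochberg adjustment over all 14635 genes tested, 11 of these 25 members (44.0%) were lower and 8 (32.0%) higher in the knockdown cells. The background for all genes tested was 30.5% lower and 29.4% higher, and it applies to every class and list counted below. The 19 members with a call made up 76.0% of the 25, against 59.9% of all genes tested, and the libraries of the groups did not overlap for 18 of the 25, against 64.3% of all genes tested. The median log2 fold change was 0.0017 for the 25 members and 0.0043 for all genes tested. Calls therefore ran in both directions, and most were small. At least 2-fold differences with a call were found for ABCA1, which was lower, and for ABCD2 and ABCA10, which were higher, against 3.56% of all genes tested that fell and 6.51% that rose by that much. ABCA10 passed the filter only through its knockdown libraries, so its difference is a condition of its being tested.

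**Figure D1:**
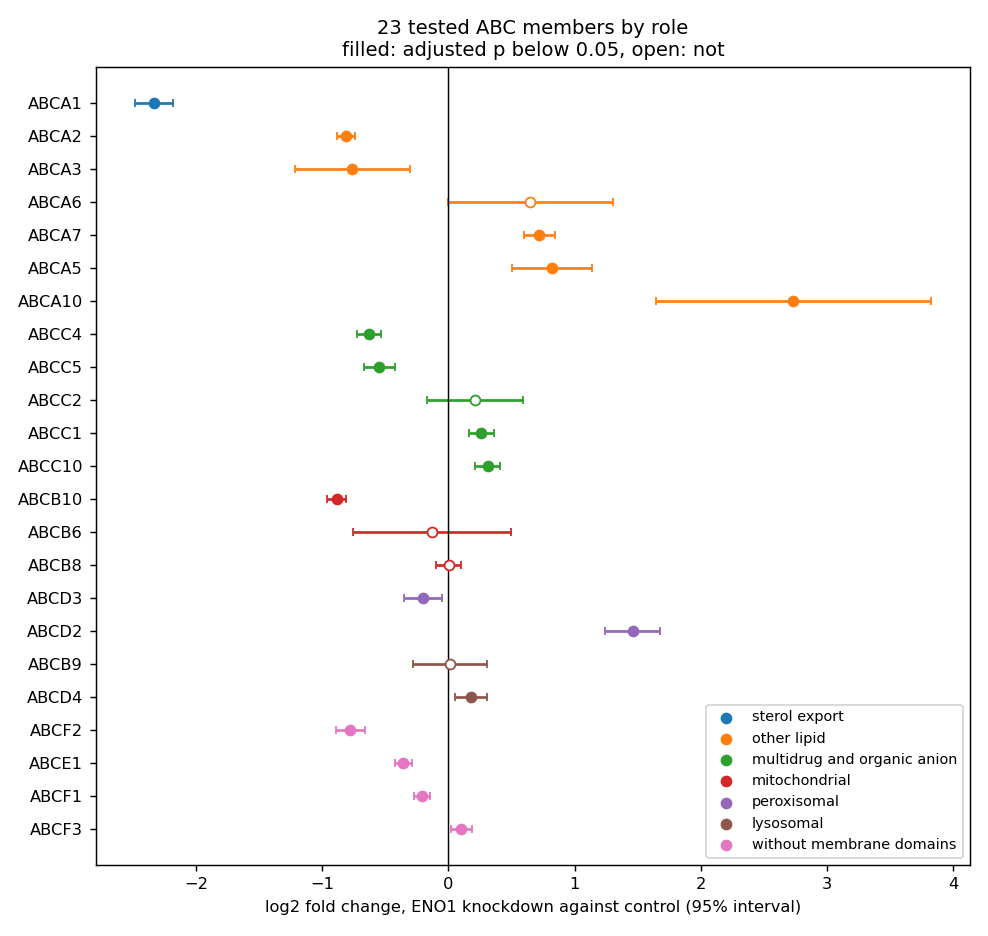
Log2 fold change of 23 of the tested ABC members, knockdown against control (x axis), by role (colour), with bars for the approximate 95% interval. Filled points had an edgeR adjusted p below 0.05 and open points did not; ABCA1 lies farthest to the left at -2.33 and ABCA10 farthest to the right at 2.73, with the widest interval.

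Among the 4 sterol exporters with a row, ABCA1 alone passed the filter on low counts. ABCA1, which moves cholesterol and phospholipid from the cell to apolipoprotein acceptors, was at 43.5, 42.2 and 41.4 CPM in the control group, against 8.55, 8.53 and 8.16 CPM in the knockdown group. The groups were far apart and the spread within each was small. The mean fell from 42.4 ± 1.08 to 8.42 ± 0.219 CPM (SD, n = 3), which is 19.9% of the control level. The log2 fold change was -2.33 (approximate standard error, SE, 0.07) with a 95% interval from -2.48 to -2.18 (edgeR adjusted p = 2.232e-20). Only 56 of the 14635 genes tested had a lower log2 fold change. In these bulk libraries fewer cells expressing the gene and less RNA per cell cannot be told apart. ABCA1 (ENSG00000165029) lies on the minus strand of chromosome 9 from 104781002 to 104928237 (GRCh38), and none of its exons overlapped another gene.

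The other 3 sterol exporters with a row were close to undetected, and ABCG1, which also exports sterol, is not analysed here. ABCG5 and ABCG8, the paired exporter of plant sterols and cholesterol in liver and gut, had 2 and 6 counts over the control libraries and 0 and 4 over the knockdown libraries. For ABCG5, 0 counts over the knockdown libraries allow a level of up to 0.047 CPM. ABCG4, an exporter of sterol known mainly from brain, had 0 counts in the controls and 4 in the knockdown libraries. A count of 0 in the controls allows up to 0.0402 CPM (3 counts over the group, counting error only). No difference in these genes was detectable at this depth.

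Genes around ABCA1 in the LXR pathway moved less. Of 8 LXR receptors and partners, 3 were lower and 3 higher, with a median log2 fold change of 0.10. RXRA, the retinoid X receptor that pairs with LXR, fell from 232 ± 0.693 to 163 ± 6.59 CPM (SD, n = 3), and NR1H2, the gene of LXR beta, had a log2 fold change of -0.33. NR1H3, the gene of LXR alpha, fell from 20.3 ± 0.974 to 15.9 ± 0.834 CPM (SD, n = 3). The corepressor NCOR1 and the coregulator NRIP1 had log2 fold changes of 0.25 and 0.33. The coactivator NCOA1, named after its value was seen, was the third higher gene of the list, at 0.43. Among 10 LXR targets outside the family 4 were lower, 2 higher and 4 had no call, with a median of -0.18. The lower ones were NR1H3, MYLIP, a ubiquitin ligase, at -0.22, the phospholipid transfer protein PLTP at -0.98 and SREBF1 at -0.81. The 2 that rose, named after their values were seen, were the apolipoproteins APOC2 and APOE, at 0.58 and 0.87, and both were below 4 CPM in each group.

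Genes of sterol uptake, storage and traffic were more often lower than higher. Of 11 tested genes 6 were lower, 1 was higher and 4 had no call, with a median log2 fold change of -0.22. The shares of all genes tested were 30.5% lower and 29.4% higher. STARD4, a soluble sterol carrier, fell from 25.6 ± 0.664 to 8.03 ± 0.719 CPM (SD, n = 3), with a log2 change of -1.67. SCARB1, the receptor for high-density lipoprotein, had a log2 fold change of -0.76 and the lysosomal lipase LIPA of -0.22. No tested gene of this list reached the size of the fall in ABCA1. Of the 9 myeloid markers 4 were higher, 3 lower and 2 without a call, and among them the granule genes LYZ and MPO had log2 fold changes of -2.41 and -2.61. Their part in the ABCA1 result was not tested.

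**Figure D2:**
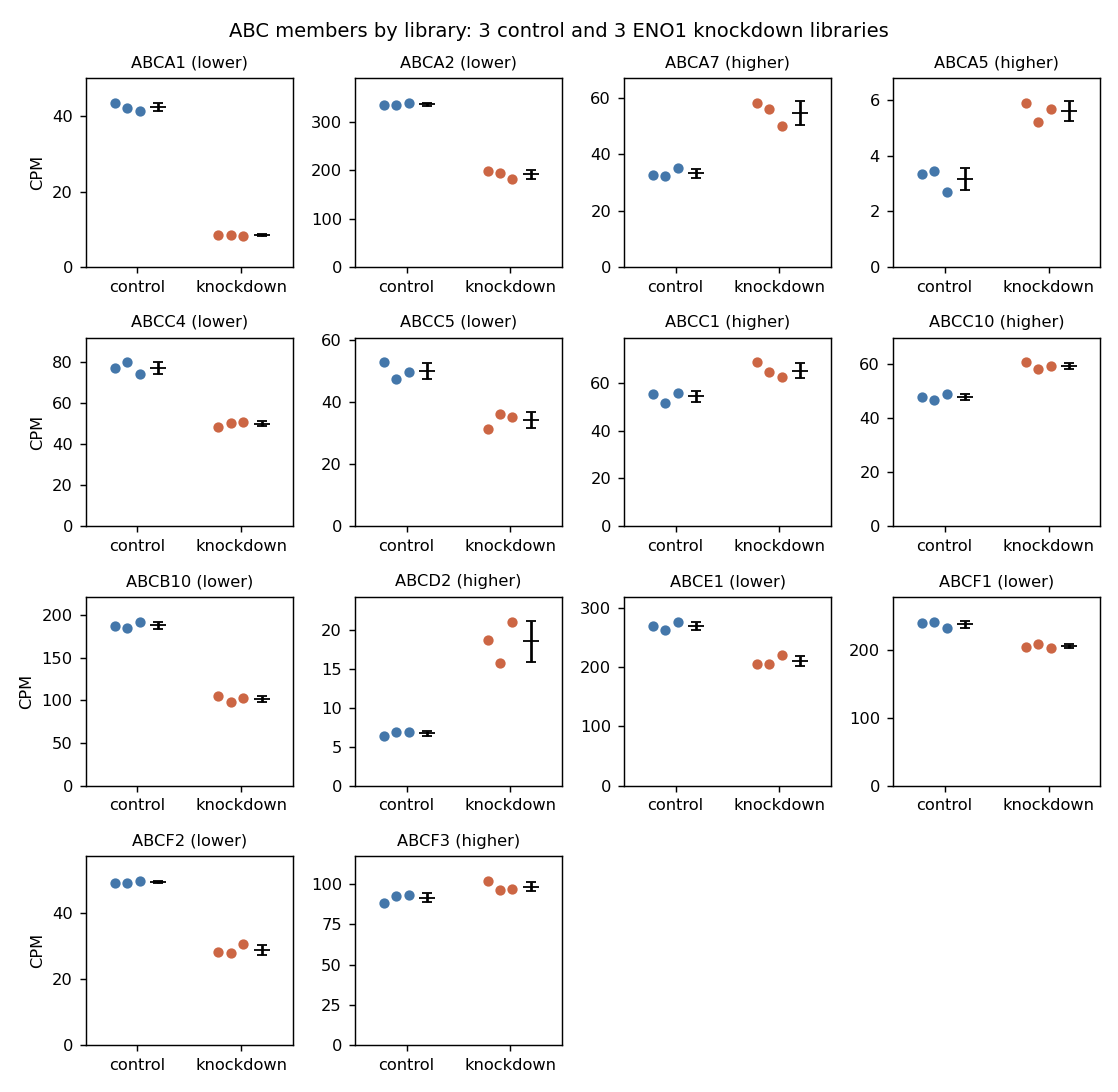
CPM (y axis, from 0) of 14 members in each of the 3 control and 3 knockdown libraries (points), with the mean ± SD beside each group; the call in brackets is from edgeR. For ABCA1 the knockdown points sit between 8.16 and 8.55 CPM, all below the controls, while for ABCD2 they sit between 15.8 and 21.1 CPM, all above the controls.

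The other lipid transporters of the A subfamily moved in both directions. Of 6 tested members, 3 were higher, 2 lower and 1 had no call. ABCA2, an endolysosomal lipid transporter known for its role in myelinating cells, was at 334, 336 and 339 CPM in the control group, against 199, 195 and 181 CPM in the knockdown group. All knockdown libraries were below all controls. The log2 fold change was -0.81 (SE 0.03, edgeR adjusted p = 1.516e-17).

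ABCA7, the closest relative of ABCA1 and a risk gene for Alzheimer's disease, went the other way. It was at 32.5, 32.2 and 35.1 CPM in the control group, against 58.1, 56.1 and 49.9 CPM in the knockdown group, with no overlap. Its log2 fold change was 0.72 (SE 0.06, edgeR adjusted p = 3.713e-11). On the scale of CPM per kilobase of exon, ABCA7 stood at 1.07 ± 0.074 times the level of ABCA1 in the controls and at 8.81 ± 0.48 times in the knockdown libraries (SD, n = 3). That pair was chosen after its values were seen and its ratio was not tested.

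ABCA3, which loads surfactant lipid into lamellar bodies of lung cells, was low throughout, with 3.01, 2.67 and 2.91 CPM in the control group, against 2.28, 1.41 and 1.38 CPM in the knockdown group. It fell by 0.76 on the log2 scale (SE 0.22, edgeR adjusted p = 0.004681). ABCA12, the lipid transporter of skin keratinocytes, had 12 counts over the controls and 16 over the knockdown libraries. ABCB4, the phosphatidylcholine exporter of liver, had 1 and 2.

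A cluster of 5 A-subfamily genes on chromosome 17, from 68867292 to 69327244 (GRCh38), lay on one strand in the order ABCA8, ABCA9, ABCA6, ABCA10 and ABCA5. ABCA5, a lysosomal lipid transporter, was at 3.35, 3.44 and 2.71 CPM in the control group, against 5.90, 5.22 and 5.70 CPM in the knockdown group. It rose by 0.82 on the log2 scale (SE 0.15, edgeR adjusted p = 4.348e-05). ABCA10 had 1, 2 and 7 counts in the controls and 25, 19 and 15 counts in the knockdown libraries. That is a ratio of 6.90 after scaling (95% exact interval 3.50 to 15.1, counting error only). Control replicate 3 held 7 of the 10 control counts, and without it the fitted log2 fold change went from 2.73 to 3.83. Both were above the controls in all 3 knockdown libraries, and the genes share 318 bases of exon, so their reads are not fully separate.

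ABCA6, in the same cluster, had no call, with a log2 fold change of 0.65 and a 95% interval from -0.01 to 1.30 (edgeR adjusted p = 0.08192), although its knockdown libraries did not overlap the controls. ABCA9 had 2 counts over the controls and 12 over the knockdown libraries, a scaled ratio of 7.01 (95% exact interval 1.56 to 64.5, counting error only), and ABCA8 had 0 and 2. Summed over the 5 genes, the level was 4.32, 4.14 and 4.10 CPM in the control group, against 8.46, 7.94 and 7.87 CPM in the knockdown group. ABCA5 made up most of it in every library. The cluster was singled out after its values were seen, and its sum was not tested.

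The drug and organic anion exporters divided within the C subfamily. Of 5 tested members 2 were lower, 2 higher and 1 had no call, and none changed 2-fold. Among all genes tested 30.5% were lower and 29.4% higher. ABCC4 (MRP4), an exporter of cyclic nucleotides, prostaglandins and nucleoside analogues, was at 77.0, 79.8 and 74.3 CPM in the control group, against 48.5, 50.2 and 51.0 CPM in the knockdown group. The groups did not overlap, and the log2 fold change was -0.63 (SE 0.05, edgeR adjusted p = 5.456e-12). ABCC5 (MRP5), a relative that also carries cyclic nucleotides, was at 52.8, 47.6 and 49.7 CPM in the control group, against 31.2, 36.2 and 35.3 CPM in the knockdown group. Its log2 fold change was -0.55 (SE 0.06, edgeR adjusted p = 8.229e-09).

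ABCC1 (MRP1), the exporter of glutathione conjugates and of several anticancer drugs, was at 55.3, 51.8 and 55.9 CPM in the control group, against 68.7, 64.5 and 62.5 CPM in the knockdown group. It rose by 0.26 on the log2 scale (SE 0.05, edgeR adjusted p = 5.399e-05). ABCC10 (MRP7), which carries taxanes among other drugs, rose by 0.31 (SE 0.05, edgeR adjusted p = 2.691e-06), from 47.9 ± 1.07 to 59.5 ± 1.16 CPM (SD, n = 3). In both genes all knockdown libraries were above all controls. Per kilobase of exon, ABCC1 stood at 0.806 ± 0.06 times the level of ABCC4 in the controls and at 1.49 ± 0.11 times in the knockdown libraries (SD, n = 3). That order of the pair was noticed in the data and not tested.

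ABCC2 (MRP2), the exporter of conjugated bilirubin, stayed near 3 CPM, at 3.15 ± 0.483 in the controls and 3.66 ± 0.776 in the knockdown libraries (SD, n = 3). The groups overlapped, and the log2 fold change of 0.21 had a 95% interval from -0.17 to 0.59 (edgeR adjusted p = 0.3383). The classical multidrug genes were close to undetected. ABCB1, which encodes P-glycoprotein, had 1 count over the controls and 3 over the knockdown libraries. ABCG2, the breast cancer resistance protein, had 1 and 5, a scaled ratio of 5.85 with a 95% exact interval from 0.654 to 276 (counting error only), so a difference was not detectable at this depth. ABCC3 and ABCC11, exporters of conjugates and of earwax and sweat gland substrates, had 5 and 2 counts over the controls and 7 and 4 over the knockdown libraries. ABCC6, whose loss causes ectopic mineralisation, had 1 count over the controls and 15 over the knockdown libraries, a scaled ratio of 17.5 with a 95% exact interval from 2.70 to 738 (counting error only). It is uncertain because 18.07% of its 50-base stretches occur in other genes, chiefly its pseudogenes.

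Enzymes and regulators that act beside these exporters were more often higher. Of 11 tested genes of glutathione synthesis and conjugation, 6 were higher, 1 lower and 4 without a call, with a median log2 fold change of 0.20. GCLC and GCLM, the subunits of the rate-limiting ligase, rose by 0.74 and 0.31, the microsomal transferase MGST3 by 0.40 and GSTK1 by 0.22 on the log2 scale. GSR, the glutathione reductase, was the one that fell (log2 fold change -0.15; chosen for naming once its value was known). Among 11 tested xenobiotic receptors and genes of the NRF2 response, 8 were higher and 1 lower, with a median of 0.33. Of all genes tested 29.4% were higher and 30.5% lower. AHR, the dioxin receptor, rose from 23.7 ± 1.37 to 56.9 ± 3.17 CPM (SD, n = 3), and TXNRD1, NQO1 and HMOX1 rose by 0.42, 1.86 and 1.51.

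Of the 4 mitochondrial members 1 was lower and 3 had no call. ABCB10, an inner-membrane transporter of the erythroid and haem pathway, was at 187, 185 and 192 CPM in the control group, against 105, 98.1 and 103 CPM in the knockdown group. The groups were well separated, and the log2 fold change was -0.88 (SE 0.04, edgeR adjusted p = 1.468e-17).

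ABCB8, part of the inner-membrane potassium channel complex, was at 52.3 ± 1.52 CPM in the control group, against 52.4 ± 0.641 CPM in the knockdown group (SD, n = 3). Its log2 fold change of 0.0017 had a 95% interval from -0.10 to 0.10. ABCB6, linked to porphyrin transport and to a blood group, was near 1 CPM in both groups, with a log2 fold change of -0.13 and a 95% interval from -0.76 to 0.49. It is uncertain because 48.78% of its 50-base stretches occur in other genes.

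The pathways that use these transporters moved in both directions. In haem synthesis 4 of 10 tested genes were lower and 4 higher, with a median log2 fold change of 0.05. UROD, which acts in the middle of the pathway, fell by 0.35 on the log2 scale and the haem exporter FLVCR1 fell by 0.83, while CPOX rose by 0.73. In iron-sulphur cluster assembly 9 of 14 genes were lower and 4 higher, with a median of -0.17. For both lists the shares of all genes tested were 30.5% lower and 29.4% higher. The glutaredoxin GLRX5 fell from 77.0 ± 1.93 to 47.0 ± 1.88 CPM (SD, n = 3), with a log2 change of -0.71. The carrier protein ISCA1, the desulphurase partner LYRM4 and the scaffold ISCU had log2 fold changes of -0.47, -0.46 and -0.41.

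The peroxisomal members are half-transporters that bring long-chain acyl groups into the organelle, and of the 3 tested 1 was higher and 2 lower. ABCD2, which carries very long-chain and polyunsaturated acyl groups, was at 6.36, 6.89 and 6.93 CPM in the control group, against 18.7, 15.8 and 21.1 CPM in the knockdown group. Every knockdown library was above every control. The mean rose from 6.73 ± 0.318 to 18.6 ± 2.64 CPM (SD, n = 3), a log2 change of 1.46 (SE 0.11) with a 95% interval from 1.24 to 1.68 (edgeR adjusted p = 2.575e-12). A higher log2 fold change was found for 476 of the 14635 genes tested. ABCD2 (ENSG00000173208) lies on the minus strand of chromosome 12 from 39550033 to 39619751 (GRCh38).

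ABCD3, the main peroxisomal membrane protein PMP70, was at 25.1, 22.2 and 24.3 CPM in the control group, against 19.5, 20.4 and 22.4 CPM in the knockdown group. These groups overlapped, and the log2 fold change of -0.20 passed the test (edgeR adjusted p = 0.02233). It did not pass without control replicate 1 (0.09708) or 3 (0.06547), or without knockdown replicate 1 (0.1077) or 2 (0.06341). Nor did it with library-size scaling (0.09132), upper-quartile scaling (0.06329), the filter at 5 CPM (0.05841) or DESeq2 (0.06995).

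All 10 peroxisome partner genes had a call, 6 higher and 4 lower, with a median log2 fold change of 0.20. A call was given to 59.9% of all genes tested. ACAA1, the thiolase that ends peroxisomal beta-oxidation of straight chains, rose by 0.56, while HSD17B4, an enzyme of an earlier step, had a log2 fold change of -0.42. Catalase (CAT) fell from 262 ± 1.89 to 176 ± 5.90 CPM (SD, n = 3).

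In lysosomes ABCD4, which acts in the release of cobalamin (vitamin B12), was at 31.4, 31.3 and 35.5 CPM in the control group, against 38.4, 35.3 and 37.4 CPM in the knockdown group. The groups overlapped, and the rise of 0.18 on the log2 scale passed the test (edgeR adjusted p = 0.01477). It did not pass without control replicate 1 (0.09577) or 2 (0.07702), without knockdown replicate 1 (0.0767), without both control replicate 2 and knockdown replicate 3 (0.07486), or with DESeq2 (0.09078). LMBRD1, the lysosomal partner of ABCD4, rose by 0.54. Of the 10 genes of the cobalamin path 3 were higher, 4 lower and 3 without a call, with a median of 0.04. TCN2, named after its value was seen, was among the 3 higher genes. It ran from 0.193 to 0.369 CPM in the control group, against 0.984 to 1.997 CPM in the knockdown group. Like ABCA10, TCN2 passed the filter only through its knockdown libraries, so its rise is a condition of its being tested. The adenosyltransferase MMAB fell from 55.8 ± 1.81 to 25.6 ± 0.256 CPM (SD, n = 3), the cobalamin uptake receptor CD320 had a log2 fold change of -0.60 and the reductase MTRR of -0.28.

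ABCB9, a lysosomal peptide transporter, had no call, at 6.33 ± 1.21 CPM in the control group, against 6.36 ± 0.873 CPM in the knockdown group (SD, n = 3). The 95% interval of its log2 fold change ran from -0.28 to 0.31. Genes on the opposite strand overlap 24.5% of its exon bases, and the strand setting of the counting is not given. TAP1 and TAP2, its relatives in peptide transport to the endoplasmic reticulum, belong to the family under other names, as does CFTR, which is not analysed here. TAP1 was at 13.6, 13.6 and 13.4 CPM in the control group, against 41.4, 38.7 and 36.2 CPM in the knockdown group, a log2 fold change of 1.52. TAP2 had a log2 fold change of -0.12 (edgeR adjusted p = 0.04774). That is close to the threshold of 0.05, and the call was not checked under the alternatives. Of 7 genes of peptide loading 3 were higher and 2 lower, with a median of 0.07. The chaperones PDIA3 and CALR were at -0.54 and -0.35, and TAPBPL and B2M rose by 0.75 and 0.28.

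Of the 4 members without membrane domains 3 were lower and 1 was higher. ABCE1, which splits ribosomes after termination, was at 269, 263 and 276 CPM in the control group, against 205, 205 and 219.8 CPM in the knockdown group. There was no overlap, and the log2 fold change was -0.36 (SE 0.03, edgeR adjusted p = 5.873e-10). Genes on the opposite strand overlap 11.9% of its exon bases, so its level is uncertain without a known strand setting. ABCF1, a partner of initiation factor eIF2, had a log2 fold change of -0.21 (SE 0.03, edgeR adjusted p = 2.288e-06), from 238 ± 5.09 to 206 ± 3.00 CPM (SD, n = 3).

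ABCF2, whose cellular role is less well known, showed the largest change of the F subfamily. It was at 49.2, 49.2 and 49.8 CPM in the control group, against 28.1, 27.9 and 30.5 CPM in the knockdown group. The log2 fold change was -0.78 (SE 0.06, edgeR adjusted p = 1.902e-12). It is uncertain because 45.06% of its 50-base stretches occur in other genes, chiefly a read-through transcript of the same locus. A read-through gene, ABCF2-H2BK1, had its own row in the table, with 5 counts over the controls and 5 over the knockdown libraries.

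ABCF3, which takes part in antiviral responses in mouse, was at 88.5, 93.0 and 93.6 CPM in the control group, against 102, 96.7 and 97.0 CPM in the knockdown group. All knockdown libraries were above all controls, by a small margin. The rise of 0.10 on the log2 scale passed the test (edgeR adjusted p = 0.03052) but not with the no-filter setting (0.1225), the replicate block (0.05767) or DESeq2 (0.1454), nor without control replicate 1 (0.2042) or knockdown replicate 1 (0.1595). Of 10 partner genes in ribosome recycling and the eIF2 pathway 7 were lower and none was higher, with a median of -0.17. Among all genes tested 30.5% were lower and 29.4% higher. The log2 fold change was -0.44 for the release factor GSPT1 and -0.29 for ETF1, another release factor. It was -0.43 and -0.35 for the eIF2 subunits EIF2S2 and EIF2S3.

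**Figure D3:**
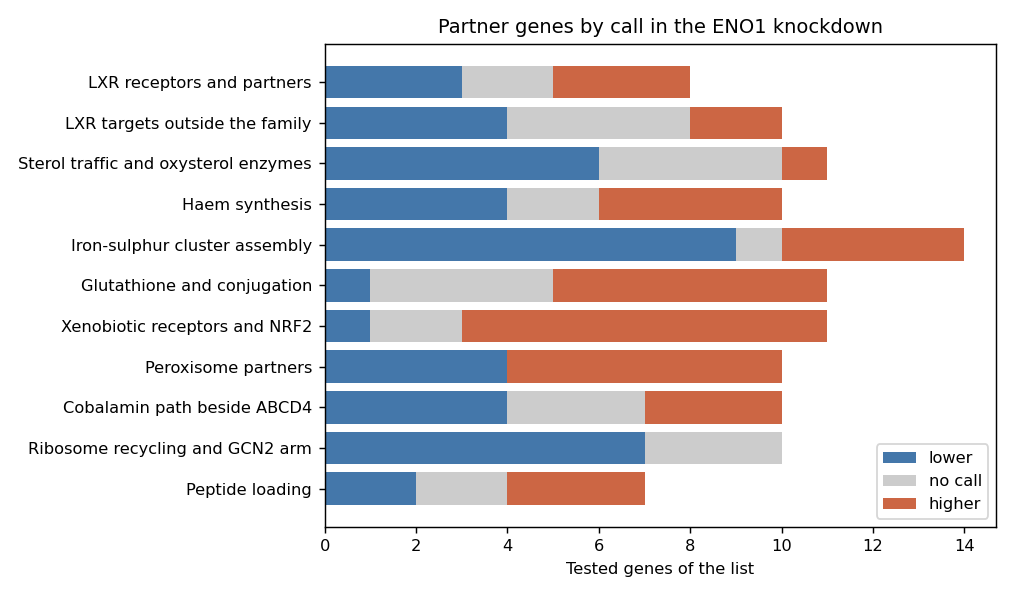
Number of tested genes (x axis) called lower, without a call or called higher in the knockdown libraries, for 11 lists of genes that act beside ABC members (y axis). The ribosome recycling list has 7 lower and none higher, and the list of xenobiotic receptors and NRF2 genes has 8 higher and 1 lower. Of all genes tested 30.5% were lower and 29.4% higher.

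Levels across members were compared per kilobase of exon, since counts grow with transcript length. In the controls ABCF1 was highest at 52.7 CPM per kilobase, followed by ABCB10 at 44.2 and ABCE1 at 43.0. ABCA2 stood at 29.2. Among the 38 members with a length, ABCB10 moved from rank 2 to rank 4 and ABCA2 from rank 5 to rank 6. ABCA1 moved from rank 16, at 3.73 CPM per kilobase, to rank 18, at 0.742.

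**Figure D4:**
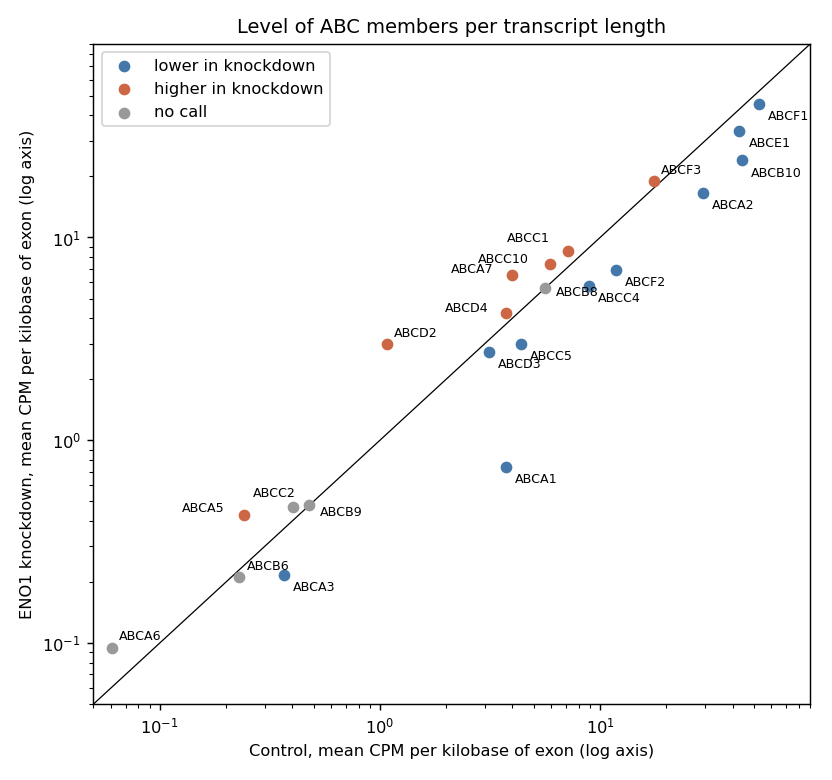
Mean level in CPM per kilobase of exon in the controls (x axis, log scale) and in the knockdown libraries (y axis, log scale) for most members above 0.05 in the controls, coloured by call; the line marks equal levels. ABCA1 lies farthest below the line, at 3.73 and 0.742, and ABCD2 farthest above it, at 1.08 and 2.98.

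The family as a whole contributed fewer reads in the knockdown libraries. The summed level of the 39 members was 1768, 1765 and 1790.5 CPM in the control group, against 1418, 1404 and 1389 CPM in the knockdown group. The mean was 1774 ± 14.0 CPM in the control group, against 1404 ± 14.2 CPM in the knockdown group (SD, n = 3), which is 79.1% of the control level. ABCA2 accounted for 39.1% of this net difference, ABCB10 for 23.2%, ABCE1 for 15.9% and ABCA1 for 9.2%. Without ABCA2 the sum still did not overlap, at 1429 to 1451 CPM in the control group, against 1208 to 1219 CPM in the knockdown group. ABCA7, with a rise of 21.5 CPM, was the largest contribution in the other direction. A sum of this kind follows the most abundant and longest transcripts, and it was not tested.

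**Figure D5:**
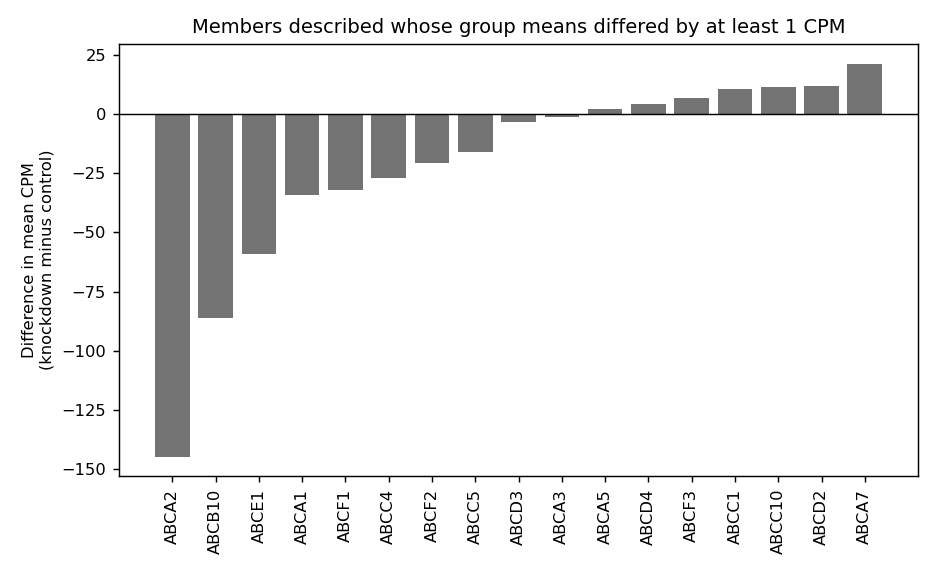
Difference in mean CPM, knockdown minus control (y axis), for the members described here whose group means differed by at least 1 CPM (x axis). ABCA2 at -144.9 and ABCB10 at -86.1 have the longest bars downwards, and ABCA7 at 21.5 the longest upwards.

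The 14 members that did not pass the filter had 2 to 28 counts over all 6 libraries and at most 11 in any library. Besides those already given, ABCB11, the bile salt exporter of liver, had 3 counts over the controls and 0 over the knockdown libraries, and the pseudogene ABCC13 had 4 and 12. In 11 of the 14 (78.6%) the knockdown libraries held more counts than the controls, although their totals were smaller. The same was seen in 54% of all 8592 genes that the filter removed, and each knockdown library had more genes with a count (20407 to 20462) than each control (19870 to 19883). These are sums of a few reads and were not tested.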

How the data were processed

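The members and gene lists were chosen with earlier results of these data known. The authors deposited one table of raw read counts per gene for the 6 libraries, and no normalization of theirs enters here. The submitters' processing notes name HISAT2 2.0.5 and hg38. For counter, annotation and strand the sources used here say nothing. Symbols were found for 23211 of 23227 genes. The main test was edgeR 4.0.16 under R 4.3.3 (TMM, filterByExpr, robust quasi-likelihood, two-sided, Benjamini-Hochberg over 14635 genes, threshold 0.05). CPM uses TMM-scaled totals. The SE is approximate, from the fold change and its F statistic. Positions, exon lengths and shared 50-base stretches came from GENCODE release 29 (GRCh38). Over 10% shared makes a gene uncertain. The rule named every member and up to 4 genes of each partner list with the smallest adjusted p; a few of these genes enter the counts but are not reported here by name. Alternatives were RLE, upper-quartile and library-size scaling, no filter or 5 CPM in 3 libraries, DESeq2 1.42.0, limma-voom (limma 3.58.1), a replicate block, a threshold of 0.01 and single libraries left out. Leaving out control replicate 2 and knockdown replicate 3 together was added after the data were seen. The test was tried on simulated data.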

Additional observations from a re-analysis of the deposited data

How the results depend on the processing

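Over 16 alternatives the count of members lower in the knockdown cells ran from 9 to 11 and the count higher from 6 to 9. Of the 19 calls 16, that of ABCA1 among them, held under every alternative that gave a value; the filter at 5 CPM gave none for the called members ABCA3 and ABCA10. Leaving out single libraries gave 10 to 11 lower and 6 to 9 higher. For ABCA1 the log2 fold change ran from -2.35 to -2.28 and for ENO1 from -5.02 to -4.95. The calls of ABCD3, ABCD4 and ABCF3 were lost under 9, 6 and 6 alternatives, the threshold of 0.01 among them, and the cause was not tested. The sign turned only in members without a call. ABCB8 was at -0.0216 without a filter, -0.0106 with DESeq2 and from -0.0281 to 0.0159 with single libraries left out. ABCB9 was at -0.0098 without a filter, -0.0020 with DESeq2 and from -0.126 to 0.1575 with single libraries left out. ABCB6 ran from -0.3213 to 0.0455 with single libraries left out. ABCC2 was at -0.0312 without both control replicate 2 and knockdown replicate 3. With the replicate number as a block 11 members were lower and 7 higher. Same-numbered libraries did not deviate together (correlations of -0.003, -0.002 and -0.061). The labels do not state a pairing, and these values cannot show whether the libraries were prepared in pairs. Other scalings moved the median log2 fold change of all genes tested by at most 0.0533, with library-size scaling. ABCA10 ran from 2.28 to 3.83 with single libraries left out. At this depth members below 1 CPM allow no statement on small changes.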
